A study of Mus musculus with 4 samples.

Results

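Prostaglandin genes were examined in mesoangioblasts of adult mice (AdmMABs), progenitor cells from the vessel wall able to become skeletal muscle, with or without silencing of PW1. The set held 10 genes: the breakdown enzyme Hpgd, the cyclooxygenases Ptgs1 and Ptgs2, the synthases Ptges and Ptgis, and the receptors Ptger1, Ptger2, Ptger3, Ptger4 and Ptgfr. It was put together around Hpgd, a gene selected on its lower level in this same comparison, so the values of its members are given as a description and carry no test. Members were found as probe sets whose annotation gives a single symbol equal to theirs, with the brightest probe set per gene by its mean over 4 arrays. Of the 10 members, 9 were measured, each by 1 probe set, among 19938 genes on 21789 probe sets. No probe set carried the symbol Ptgs1 alone, so this cyclooxygenase is not described.

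The AdmMABs came from the tibialis anterior, a skeletal muscle, of adult male C57/BL6 mice and were a polyclonal population kept proliferating in medium with fetal bovine serum. Cells of the shPW1 group carried a lentiviral short hairpin RNA against PW1, the transcription factor encoded by Peg3, and cells of the control group (Ctl) carried a lentiviral scrambled hairpin that matches no mouse sequence. PW1 was targeted by 1 hairpin only, transduced cells were selected with puromycin according to the methods, and these place shPW1 in pLV-H1 while naming a control hairpin in pLKO.1, so any difference of vector cannot be told apart from the silencing. For each group 2 RNA extractions of the transduced cells were hybridized to 1 array each, and the p-values given for genes outside the set reflect the spread between those extractions, possibly technical, and nothing more.

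Prostaglandins are short-lived lipid signals made from arachidonic acid, which phospholipases release from membranes. The cyclooxygenases turn it into prostaglandin H2, terminal synthases make prostaglandin E2, prostacyclin and other products from that, and the transporter encoded by Slco2a1 carries prostaglandins into cells where 15-hydroxyprostaglandin dehydrogenase, the product of Hpgd, inactivates them. Secreted prostaglandins act through G protein-coupled receptors, and in skeletal muscle prostaglandin E2 and prostaglandin F2 alpha are known to act on muscle progenitors and on growing muscle cells.

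The silenced gene was read first. In Ctl, the log2 expression of Peg3 was 8.67 and 8.70, and in shPW1 it was 6.22 and 6.47, a difference of -2.34 (SE 0.10, n = 2 arrays per group). Both arrays labelled as shPW1 transduced lay below both Ctl arrays.

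The starts of the genes that differed most within the set are shown because PW1 binds DNA. Each is the genomic plus strand, which is also the strand of the gene, from 250 bases before the RefSeq transcript start (GRCm38.p6), 5′ to 3′, over 280 bases, and the capitals mark E-boxes (CANNTG), the sites of basic helix-loop-helix factors such as MyoD. The Hpgd sequence lies at chr8:56294302-56294581 and the Ptgs2 sequence at chr1:150099781-150100060.
Hpgd: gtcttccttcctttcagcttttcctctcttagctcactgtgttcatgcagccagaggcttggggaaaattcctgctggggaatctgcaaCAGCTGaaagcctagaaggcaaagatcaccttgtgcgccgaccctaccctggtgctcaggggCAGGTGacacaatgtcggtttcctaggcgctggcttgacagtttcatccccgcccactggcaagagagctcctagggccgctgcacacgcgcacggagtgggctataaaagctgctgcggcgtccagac
Ptgs2: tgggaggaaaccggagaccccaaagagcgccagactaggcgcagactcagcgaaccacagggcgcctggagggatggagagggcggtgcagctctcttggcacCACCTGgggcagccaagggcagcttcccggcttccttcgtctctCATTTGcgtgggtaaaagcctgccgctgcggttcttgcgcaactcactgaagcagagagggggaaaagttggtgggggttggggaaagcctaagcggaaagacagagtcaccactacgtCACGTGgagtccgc
Hpgd held E-boxes starting 161 and 99 bases before the transcript start, and Ptgs2 held them at 147 and 103 bases before it and 16 bases after it. The window searched ran from 250 bases before to 50 bases after the start, on both strands, and 8 of the 10 members had one in the table, all but Ptgis and Ptger1. The DNA-binding motif that the study cites for PW1 from earlier work, AGTNNCNNNTGGCT, was in 0 of these 8 windows and in 0.484% of 32851 windows of all genes. Only exact matches of this motif were searched, and not the core sequences that the study looked for in a promoter. With so small a share over all windows, 0 of 8 does not tell whether PW1 sites are absent. The cAMP response element was searched in its full form TGACGTCA only, which was in 0 of 8 and in 1.79% of all windows. Half-sites and variant forms of it were not searched, so their presence is not described. An E-box was in 7 of 8, and in 72.3% of all windows. The form CACGTG, an E-box looked at after the sequence was seen, was in 1 of 8, that of Ptgs2, and in 7.15% of all. These are matches of letters, and the arrays hold no measurement of binding.

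Among the members, Hpgd was lower and Ptgs2 higher in shPW1 AdmMABs, and the differences of the other 7 were no larger than 0.35 on the log2 scale. Ptgs2 encodes the inducible cyclooxygenase, which catalyses the committed step of prostaglandin synthesis. Its log2 expression was 10.53 and 10.48 in Ctl against 11.65 and 11.60 in shPW1. Both shPW1 arrays lay above both Ctl arrays. The difference was 1.12 (SE 0.06, n = 2 per group), which is 2.17-fold higher in shPW1.

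Ptges encodes the inducible microsomal synthase that makes prostaglandin E2 from the product of the cyclooxygenases. It had log2 values of 5.21 and 5.30 in Ctl and 5.18 and 5.24 in shPW1. The groups overlapped, with a difference of -0.04 (SE 0.07). Ptgis encodes prostacyclin synthase, and its log2 values were 7.00 and 7.14 in Ctl against 6.78 and 6.67 in shPW1. Here the arrays did not overlap, and shPW1 was lower by a difference of -0.35 (SE 0.08). Predicted genes lie within or across the span of Ptges and Ptgis in the gene table, so their probes may not read these genes alone.

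Hpgd, which removes prostaglandins after synthesis, had the largest difference of the 9 members. Its log2 values were 6.46 and 6.43 in Ctl against 4.26 and 4.23 in shPW1. The groups lay far apart compared with the gap between replicate arrays, which was 0.03 in each. The difference was -2.20 (SE 0.06, n = 2 per group), or 4.58-fold lower in shPW1.

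How dim such a value is was read from 1223 probe sets for chemosensory receptors, genes best known from sensory neurons, although some may be used by other cells. Their log2 values had a median of 3.11 in both groups and a 95th percentile of 4.90 in Ctl and 4.85 in shPW1. In Ctl, 99.8% of them lay at or below the mean of Hpgd, and in shPW1 86.3% did. Hpgd was therefore above this range in Ctl and inside its upper end in shPW1, which is a guide to dim values and not a detection call. The 4.58-fold is therefore that of the deposited values, and it may understate the difference in RNA. In bulk RNA of this kind, fewer cells with Hpgd and less Hpgd RNA per cell cannot be told apart.

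The receptors for prostaglandin E2 showed no difference of that size. Ptger1, coupled to calcium signalling, had log2 values of 6.27 and 6.21 in Ctl and 6.18 and 5.82 in shPW1. Its arrays did not overlap, but by only a small gap, and the shPW1 arrays differed from each other by 0.36, more than the difference of -0.24 (SE 0.13). Ptger2, which raises cAMP through stimulatory G proteins, was at 4.52 and 4.71 in Ctl and at 4.52 and 4.47 in shPW1. The groups met at the second decimal and are counted as not overlapping, the difference was -0.12 (SE 0.09), and both means lay inside the range of the chemosensory receptors.

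Ptger3, which acts mainly through inhibitory G proteins, was dimmer. It had log2 values of 3.71 and 3.53 in Ctl and 3.62 and 3.71 in shPW1, a difference of 0.04 (SE 0.09) with overlapping arrays. Of the chemosensory probe sets, 69.9% lay at or below its mean in Ctl and 71.2% in shPW1. Ptger4, the other receptor that raises cAMP, was above all of them. Its log2 values were 7.80 and 7.73 in Ctl and 7.76 and 8.06 in shPW1. The groups overlapped, and the difference of 0.15 (SE 0.11) was smaller than the gap of 0.30 between the shPW1 arrays.

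Ptgfr encodes the receptor for prostaglandin F2 alpha. Its log2 values were 5.97 and 6.31 in Ctl against 6.49 and 6.48 in shPW1. The shPW1 arrays were the higher ones without overlap, with a difference of 0.35 (SE 0.13), about the size of the gap of 0.34 between the Ctl arrays. Leaving out 1 array at a time moved the difference of Ptgfr between 0.18 and 0.52. For Hpgd the range was -2.21 to -2.18, and for Ptgs2 it was 1.09 to 1.14. The lower members Ptgis and Ptger1 kept their sign, with -0.41 to -0.28 and -0.42 to -0.06, and Ptger2 ran from -0.22 to -0.03. The sign of Ptger3, at -0.04 to 0.13, and that of Ptger4, at -0.0027 to 0.29, depended on which array was left out.

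**Figure D1:**
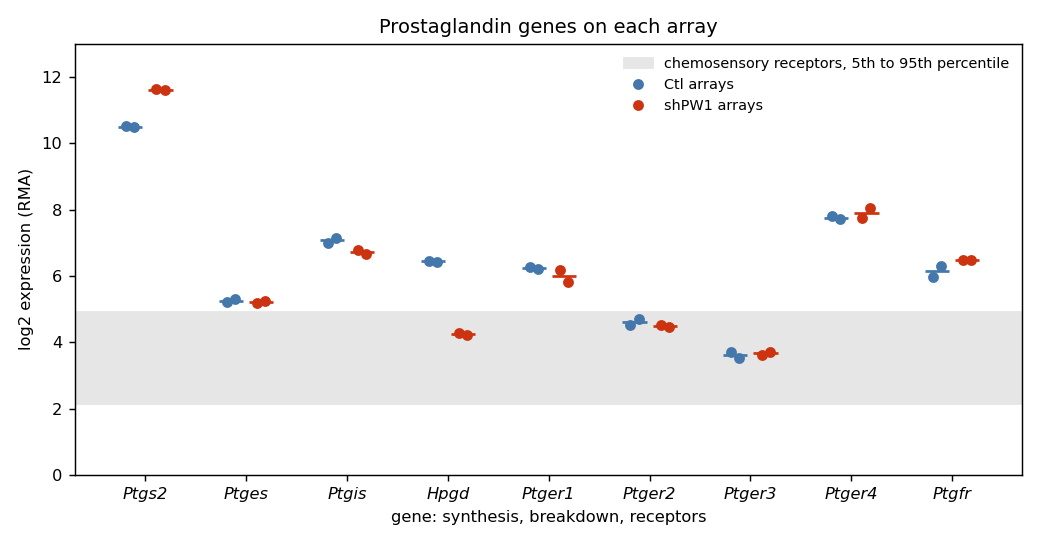
Log2 expression (RMA) of the 9 measured members, ordered by synthesis, breakdown and receptors; points are single arrays, 2 Ctl in blue and 2 shPW1 in red, and the short lines are group means. The grey band spans the 5th to 95th percentile of the chemosensory receptor probe sets, and Hpgd lies above it in Ctl with a mean of 6.44 and within it in shPW1 with 4.25, while Ptgs2 has means of 10.51 and 11.62; each gene is to be compared with itself only, since probe sets differ in response.

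Counted together, 4 members were higher and 5 lower in shPW1, with a median log2 difference of -0.04 against -0.01 for all probe sets. The split is loose, since Ptges turned to 0.0033 with quantile normalization repeated and to 0.02 with array medians subtracted, besides the turns of Ptger3 and Ptger4 without single arrays. In the limma fit over all 21789 probe sets, 9.1% were called at a Benjamini-Hochberg adjusted p under 0.05, 4.93% higher and 4.17% lower in shPW1. Of the 9 members 2 were past that threshold, Ptgs2 higher and Hpgd lower, and nothing is read from this count because the set was chosen by this comparison. The arrays of the groups did not overlap for 6 of the 9 members, and for 55.5% of all probe sets.

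The 5 genes whose pattern over the 4 arrays was nearest to that of Hpgd, each centred on its own mean, were Spon2, Igfbp2, Cadm4, Medag and Slc5a7. Spon2, a secreted matrix protein, was the nearest with a Euclidean distance of 0.04 and a log2 difference of -2.17. The distances of the others ran from 0.20 to 0.24 and their differences from -2.40, of Igfbp2, to -2.03, of Slc5a7. Igfbp2 is a binding protein for insulin-like growth factors, and Slc5a7 a choline transporter. With 4 arrays in 2 groups, such likeness is mostly that of the size of the difference.

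The other genes of the pathway were taken from 4 lists, for release and reacylation of arachidonic acid, terminal synthases, transport and breakdown, and receptors. Of 46 listed genes 43 were measured. In limma, 3 of the 43 rose, 5 fell and 35 did not pass the test, so that 18.6% were called against 9.1% of all probe sets, and their median log2 difference was -0.02. The listed genes were brighter, with a median log2 value of 7.25 in Ctl against 6.09 for all probe sets, so the shares are not like for like. With dim probe sets left out, 4 rose and 7 fell of the 25 pathway genes that remained, against 2505 and 1799 of 10895 probe sets. Arrays did not overlap for 26 of the 43, beside 55.5% of all probe sets, and nothing is read from this count. Of the 8 calls, only that of Lpcat3 held when all rows of the table were tested or when the replicate number was a block. None held when 1 array was left out, although 12 to 14 of the 43 then had an unadjusted limma p under 0.05.

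Of the 23 genes that free arachidonic acid or put it back, 21 were measured, and of these 4 fell and 1 rose. Lpcat3, an acyltransferase that loads arachidonic acid into membrane phospholipids, had log2 values of 9.61 and 9.59 in Ctl and 8.50 and 8.57 in shPW1. It fell by 1.07 (SE 0.06, limma adjusted p = 0.00583), the largest difference of the 43. Lpcat3 overlaps Emg1 in the gene table. Acsl4, the ligase that activates arachidonic acid for this reacylation, was at 9.37 in both Ctl arrays and at 8.92 and 8.97 in shPW1. It fell by 0.42 (SE 0.06, limma adjusted p = 0.0258).

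Dagla and Daglb, the lipases that make the endocannabinoid 2-arachidonoylglycerol, a further source of arachidonic acid, both fell. The log2 difference was -0.42 for Dagla (SE 0.07, limma adjusted p = 0.0368) and -0.49 for Daglb (SE 0.07, limma adjusted p = 0.0243). Pla2g4c, a calcium-independent cytosolic phospholipase, rose by 0.34 (SE 0.06, limma adjusted p = 0.0441) and is named here after its value was seen. It was dim, with means of 4.94 in Ctl, near the 95th percentile of 4.90 of the chemosensory receptors, and 5.28 in shPW1. Pla2g4a, the cytosolic phospholipase best known for supplying the cyclooxygenases, was at 8.96 and 8.87 in Ctl and 8.80 and 8.88 in shPW1. Its arrays overlapped, and the difference of -0.07 (SE 0.07, limma adjusted p = 0.566) did not pass the test.

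None of the 7 terminal synthases measured, of 8 listed, was called by limma, and 1 of them, lower in shPW1, had an unadjusted p under 0.05. With a trended robust prior limma called 1, Ptges3, as higher (adjusted p = 0.00126). Ptges2 and Ptges3, listed here as further prostaglandin E synthases by their names, had log2 differences of 0.13 (SE 0.10, limma adjusted p = 0.486) and 0.14 (SE 0.06, limma adjusted p = 0.208), and without single arrays Ptges2 ran from 0.0088 to 0.26. Dimmer probe sets of Ptges3 gave 0.19 and 0.29, with limma adjusted p of 0.128 and 0.0789. For the prostaglandin D2 synthases, the differences were -0.09 for Ptgds (limma adjusted p = 0.553) and -0.07 for Hpgds (limma adjusted p = 0.767). Thromboxane synthase, Tbxas1, differed by 0.07 (limma adjusted p = 0.742). Beside the higher value of Ptgs2, the differences of these 5 synthases ran from -0.09 to 0.14 by their brightest probe sets. Those of all 7 measured synthases ran from -0.20 to 0.14. Of the 7, 4 were above the 95th percentile of the chemosensory receptors in each group. Hpgds, with means of 3.66 in Ctl and 3.59 in shPW1, and Tbxas1, with 4.56 and 4.63, lay inside the range of those receptors. Small differences of such dim values do not show that the RNA was steady.

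Transport and breakdown beyond Hpgd had 2 rises and no fall among 8 genes. Abcc4, an export pump that carries prostaglandin E2 among other substrates, was at 8.14 and 8.21 in Ctl and 8.53 and 8.66 in shPW1. It rose by 0.42 (SE 0.07, limma adjusted p = 0.0385). Cbr2, a carbonyl reductase, was at 9.58 and 9.59 in Ctl and at 9.95 and 9.98 in shPW1. It rose by 0.38 (SE 0.06, limma adjusted p = 0.0301).

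Slco2a1, the uptake transporter that works with Hpgd, had log2 values of 5.47 and 5.61 in Ctl and 5.77 and 5.46 in shPW1. The Ctl arrays lay between the shPW1 arrays, and the difference was 0.08 (SE 0.13, limma adjusted p = 0.752). Ptgr1, the reductase that acts on the product of Hpgd, differed by -0.05 (SE 0.09, limma adjusted p = 0.784). Cbr1, which reduces prostaglandin E2 to prostaglandin F2 alpha, differed by -0.17 (SE 0.07, limma adjusted p = 0.206). Beside the lower value of Hpgd, neither its partner in uptake nor the next enzyme passed the test, which does not show that they did not differ.

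**Figure D2:**
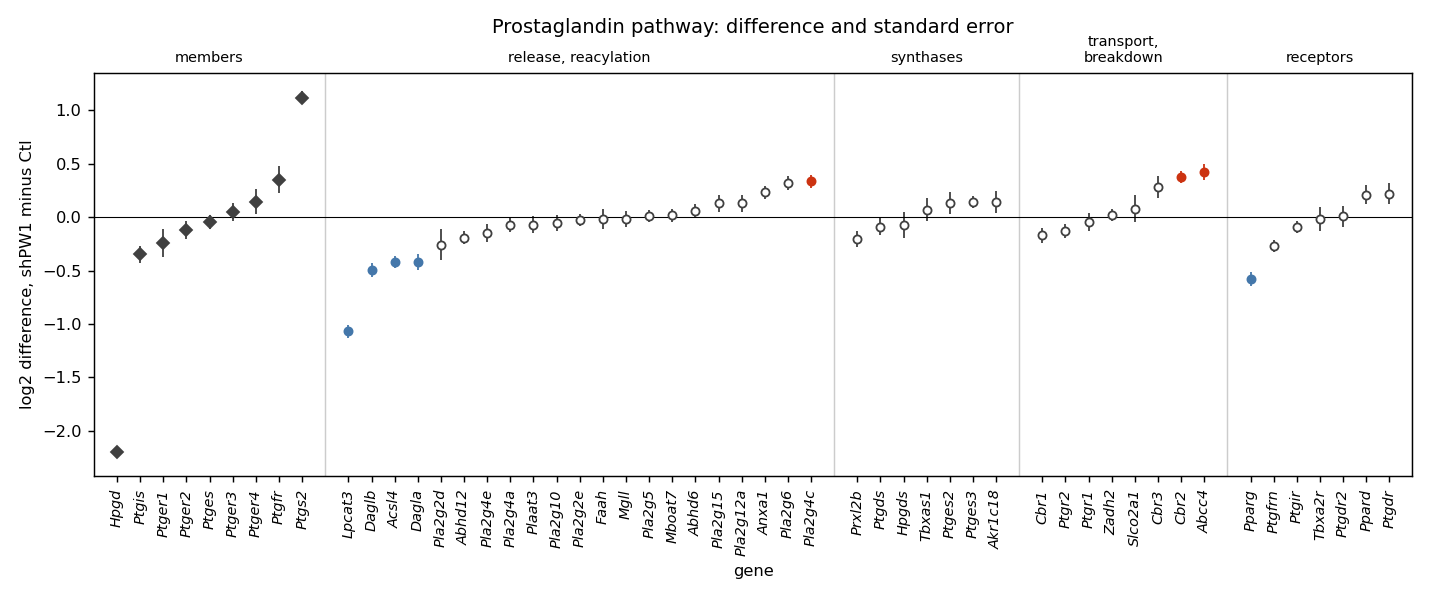
Log2 difference, shPW1 minus Ctl, with its standard error from the limma fit (bars) for the 9 members (grey diamonds, no test) and the 43 other genes of the pathway by list; filled circles were called at an adjusted p under 0.05, red higher and blue lower, and open circles were not. The members run from -2.20 for Hpgd to 1.12 for Ptgs2, and the other genes from -1.07 for Lpcat3 to 0.42 for Abcc4.

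Among 7 further receptors, 1 fell and none rose. Pparg, a nuclear receptor that binds fatty acids and prostaglandin J2 derivatives, was at 8.48 and 8.50 in Ctl and at 7.97 and 7.86 in shPW1. It fell by 0.58 (SE 0.07, limma adjusted p = 0.019). The surface receptors gave no call. For the prostaglandin D2 receptors, the differences were 0.22 for Ptgdr (SE 0.10, limma adjusted p = 0.244; 0.09 to 0.34 without single arrays) and 0.01 for Ptgdr2 (SE 0.10, limma adjusted p = 0.979). The prostacyclin receptor Ptgir differed by -0.10 (SE 0.06, limma adjusted p = 0.362) and the thromboxane receptor Tbxa2r by -0.02 (SE 0.11, limma adjusted p = 0.937).

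Neighbouring genes were read in 3 more lists, for lipoxygenases and leukotrienes, for G proteins, cyclases, kinases and phosphodiesterases coupled to the receptors, and for targets of cAMP. Of 74 listed genes 68 were measured, and in limma 3 rose, 5 fell and 60 did not pass the test. The share called was 11.8%, against 9.1% of all probe sets, with a median log2 difference of -0.01. These genes were also brighter, with a median log2 value of 6.67 in Ctl against 6.09 for all probe sets. With the replicate number as a block, only the call of Cebpb held.

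Of 15 leukotriene genes measured, 2 fell. They were Ltc4s, the synthase of leukotriene C4, with a log2 difference of -0.40 (SE 0.06, limma adjusted p = 0.0295), and Alox5, the lipoxygenase that begins leukotriene synthesis, with -0.34 (SE 0.06, limma adjusted p = 0.0403). In the coupling list 1 of 36 rose and 1 fell. Prkar2a, a regulatory subunit of protein kinase A, rose by 0.51 (SE 0.09, limma adjusted p = 0.0371), and Adcy7, an adenylyl cyclase, fell by 0.51 (SE 0.06, limma adjusted p = 0.0221).

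Of 17 genes that respond to cAMP, 2 rose and 2 fell, and the median log2 difference was 0.03. Cebpb, a leucine zipper transcription factor, rose by 0.63 (SE 0.06, limma adjusted p = 0.0137), and the kinase Sik1 by 0.35 (SE 0.07, limma adjusted p = 0.0431). Rgs2, which shortens signals of Gq-coupled receptors, was at 6.40 and 6.28 in Ctl and at 5.21 and 5.56 in shPW1. It fell by 0.96 (SE 0.13, limma adjusted p = 0.0267), the largest difference of the 68 and with a wider gap between its shPW1 arrays than between its Ctl arrays. Fos, an immediate early gene, fell by 0.44 (SE 0.09, limma adjusted p = 0.0489).

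**Figure D3:**
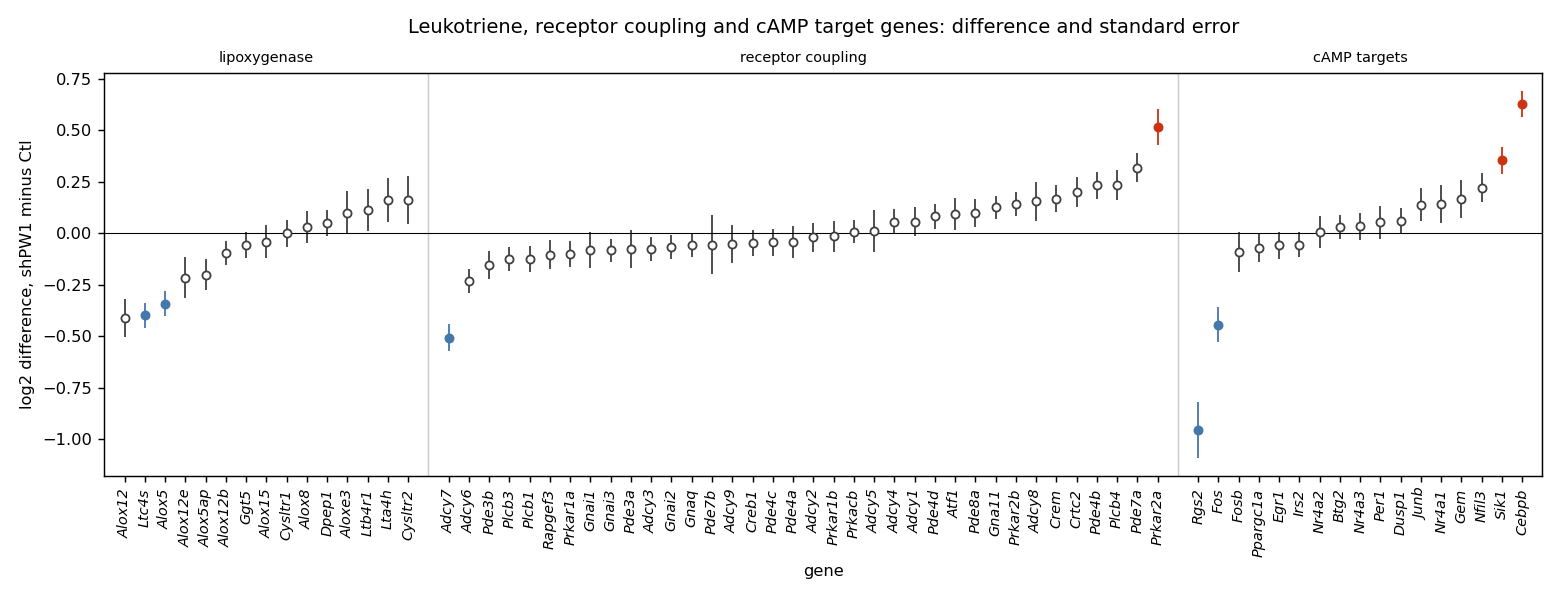
Log2 difference, shPW1 minus Ctl, with its standard error from the limma fit (bars) for the 68 measured genes of the leukotriene, receptor coupling and cAMP target lists; filled circles were called at an adjusted p under 0.05, red higher and blue lower, and open circles were not. The 8 filled points are spread over all 3 lists, from -0.96 for Rgs2 to 0.63 for Cebpb.

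The labelled cell type was read from 10 measured mesoangioblast markers of 11 listed. Of these 9 were above the 95th percentile of the chemosensory receptors in both groups, the other being Rgs5. Among the 9, Alpl, the alkaline phosphatase that the study names for adult human mesoangioblasts, was dim. Its means of 5.85 in Ctl and 5.76 in shPW1 lay below the medians of all probe sets, 6.09 and 6.02. The median of the 10 markers was brighter, 8.53 in Ctl. In limma 5 of the 10 fell, Cspg4, Des, Pdgfrb, Pdgfra and Mcam, with log2 differences from -0.66 to -0.35, and Cd44 rose by 0.35, against 9.1% called of all probe sets. Of these 6 calls 0 held with all rows tested or with any array left out, where 7 of the 10 had an unadjusted limma p under 0.05. With the replicate block Cspg4 alone held, and with array medians subtracted 3 fell and 1 rose. The mean log2 value of the 10 was 8.46 and 8.49 in Ctl against 8.26 on both shPW1 arrays.

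Other cells that can hold much Hpgd or Ptgs2 RNA were read in the same way. No call was made by limma among 13 macrophage and leukocyte, 7 mast cell and 8 endothelial markers, with 1, 0 and 0 at an unadjusted p under 0.05, and 1 of 7 epithelial markers, Krt19, fell by 0.39. The mean log2 value of the macrophage and leukocyte markers ranged from 4.61 to 4.72 in Ctl and from 4.61 to 4.74 in shPW1. Of the 13, 5 were above the 95th percentile of the chemosensory receptors in Ctl and 6 in shPW1, the brightest being Cd14 with means of 6.38 and 6.53, while Ptprc, the defining gene of leukocytes, was within that range on every array, from 3.62 to 3.73 in Ctl and from 3.66 to 4.23 in shPW1. Above the same percentile in each group were 4 of the 8 endothelial and 2 of the 7 mast cell markers. The brightest were Cldn5, with means of 5.77 in Ctl and 5.87 in shPW1, and Hdc, with 5.58 and 5.50. For the epithelial markers the mean ranged from 5.25 to 5.29 in Ctl and was 5.17 in shPW1. Of these 7, 4 were above the 95th percentile of the chemosensory receptors in each group, the brightest being Krt8 with means of 6.42 and 6.59, and Epcam was below it, from 4.44 to 4.77 in Ctl and from 4.41 to 4.79 in shPW1. The part of these shifts in the values of Hpgd and Ptgs2 was not tested.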

How the data were processed

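Total RNA of growing AdmMABs was hybridized to Mouse Gene 1.0 ST arrays, 2 Ctl and 2 shPW1. RMA was run by the authors in Partek Genomics Suite, given as version 6.4 by the submitters' processing notes, and the log2 expression values were deposited. RMA subtracts background, equalizes the distributions of the arrays and summarizes probes, and it narrows differences of dim genes. The deposited values were used as given, and no detection call was available, so the number of arrays limits the precision.

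Of 35556 rows, the 21789 with exactly 1 gene symbol were fitted in R 4.3.3 with limma 3.58.1 (lmFit, then eBayes), which gave 2 residual and 2.72 prior degrees of freedom. The two-sided p-values were Benjamini-Hochberg adjusted over all 21789. The SE of each difference is that of this fit, and the SD of an array pair was not used for tests. Of these probe sets, 21698 matched the gene table by which symbols were updated. A gene was read from its brightest probe set. The fit was run on data simulated from its own variance model, with 200 changed probe sets. This checks the code and not the calls made here.

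The members, lists and alternatives were chosen with earlier results of these data known. The genes named are all members, Peg3, up to 4 called genes of each list with the largest difference, a fixed set of named enzymes, transporters and receptors, and the 5 nearest to Hpgd, plus Pla2g4c, Emg1 and single markers, named after their values were seen. No probe set carried the symbol alone of some listed genes, among them Pla2g4b, Acsl3, Akr1b3, Ltb4r2, Fpr2, Gnas, Prkaca, Rapgef4, Areg and Ly6a. Alternatives were the analysis of variance named in the methods (p under 0.05, fold over 1.2), a block for replicate number, a trended robust prior, all rows, no dim probe sets, quantile normalization repeated, array medians subtracted, and each array omitted in turn. Promoter sequences are RefSeq's (GRCm38.p6).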

Additional observations from a re-analysis of the deposited data

How the results depend on the processing

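The difference of Hpgd ran from -2.21 to -2.13 and that of Ptgs2 kept its sign in every alternative. Counts depended on the setting, and the cause of their moves was not tested. Leaving out arrays and blocking also lowered the residual degrees of freedom. Against 1075 higher and 908 lower probe sets in limma, testing all rows gave 36 and 50 (pathway 0 and 1, neighbouring lists 0 and 0), leaving out dim probe sets 2505 and 1799 (neighbouring lists 7 higher), a trended robust prior 2735 and 1978 (7 higher in the pathway and 8 in the neighbouring lists), and subtracting array medians 1637 and 698 (neighbouring lists 3 lower), a larger share of rises. The methods' analysis of variance after Benjamini-Hochberg adjustment gave 1 and 1 (0 and 0 in both sets of lists), against 1383 and 1165 at its own thresholds. With the replicate block the counts were 256 and 258 (pathway 0 and 1, neighbouring lists 1 and 0). Deviations of same-numbered arrays correlated at -0.105 over probe sets, which with 2 arrays per group does not settle whether the numbers pair the samples. A crossed replicate block, added after seeing the data, gave 213 and 224 (pathway 0 and 1, neighbouring lists 1 and 1). Leaving out any array gave 0 and 0 in all, with the lone array of a group assumed to vary like the other group, against 3790 to 5379 probe sets at an unadjusted limma p under 0.05, 12 to 14 in the pathway and 10 to 16 in the neighbouring lists. The call of Alox5 was also lost with a second quantile normalization (adjusted p = 0.0567), and those of Alox5, Dagla and Fos with array medians subtracted (adjusted p = 0.065, 0.0529 and 0.056). Small uncalled differences turned sign. With array medians subtracted Ptgr1 was 0.0175 and Tbxa2r 0.0447, and Tbxa2r was 0.0284 after a second quantile normalization. Leaving out 1 array, Hpgds ran from -0.235 to 0.0916, Ptgdr2 from -0.11 to 0.12 (also -0.06), Ptgr1 from -0.15 to 0.0512, Slco2a1 from -0.0768 to 0.23, Tbxa2r from -0.17 to 0.13 and Tbxas1 from -0.0651 to 0.20.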
